A study of Mus musculus with 91 samples.

Results

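The comparison described here was made in the extraembryonic ectoderm (Exe) of E7.5 mouse embryos, between 4 libraries of *Dnmt*-null embryos and 4 libraries of *Dnmt3a/3b*-DKO embryos. These 8 libraries, chosen by genotype, tissue and stage from their labels, were taken from the 91 of the series, and all 1504 mature miRNAs of the table were considered. Both genotypes lack *Dnmt3a* and *Dnmt3b*. The *Dnmt*-null embryos lack *Dnmt1* as well, so the comparison asks which miRNAs of this tissue differ with the added loss of *Dnmt1*. The paper reports abnormal development and a failure of primitive streak elongation in *Dnmt*-null embryos of this stage, and normal gastrulation in the other genotype. The libraries compared thus differ in development as well as in *Dnmt1*, and the effects of these were not separated. The mutations were made in the zygote by injecting mRNA of a cytosine base editor together with guide RNAs that introduce stop codons. Zygotes from B6D2F1 females mated with *Oct4-EGFP* males were used, and the injected embryos were carried by ICR foster mothers until they were dissected. Each library is therefore made from embryos that were edited themselves, not from an established mutant line, and the sources used here do not give the number of embryos in a library. The E7.5 Exe of *Dnmt1*-KO and control embryos (4 libraries each) was used as the other arm of the same design, in which *Dnmt3a/3b* are not mutated. For comparison with the same genotypes elsewhere, 7 libraries of E7.5 epiblast (Epi) and 8 of E6.5 Exe were used. The files hold small RNA, so that the edited genes could not be checked in them.

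DNMT1 copies methylation onto the new DNA strand after replication, while DNMT3A and DNMT3B set methylation on unmethylated DNA. Exe is the trophoblast tissue that lies next to the epiblast and gives rise to part of the placenta. A mature miRNA is loaded into an Argonaute protein and represses mRNAs that pair with its seed, bases 2 to 8. A number of miRNA genes lie in imprinted domains, where genes are expressed mainly from 1 parental copy. Among these are *Mir483* in *Igf2*, *Mir296* and *Mir298* beside *Gnas*, *Mir335* in *Mest*, the *Sfmbt2* intron cluster and the large *Dlk1-Dio3* cluster.

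The mature sequences of miRNAs that the results turn on are given here 5′ to 3′ with the seed in capitals. The sequences and the gene positions given in the text are those of RefSeq for GRCm38.p6, and 17 of the 23 miRNAs past the adjusted threshold had an entry. The miRNAs in the first set were lower in *Dnmt*-null Exe, and those of the second set were higher.
miR-483-5p: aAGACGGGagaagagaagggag
miR-483-3p: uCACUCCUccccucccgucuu
miR-615-3p: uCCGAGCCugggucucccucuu
miR-10a-5p: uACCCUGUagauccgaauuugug
miR-10b-5p: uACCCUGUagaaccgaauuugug
miR-351-5p: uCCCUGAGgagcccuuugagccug
miR-503-3p: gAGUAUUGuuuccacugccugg
miR-30c-5p: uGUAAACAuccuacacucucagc
miR-142a-5p: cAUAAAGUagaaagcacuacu
miR-451a: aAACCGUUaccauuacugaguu
The second set, higher in *Dnmt*-null Exe, was as follows.
miR-298-5p: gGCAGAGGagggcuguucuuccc
miR-296-3p: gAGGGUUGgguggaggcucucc
miR-485-3p: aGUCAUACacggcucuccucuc
miR-666-5p: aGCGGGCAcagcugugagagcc
miR-129-2-3p: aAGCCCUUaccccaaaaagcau
miR-129b-5p: gCUUUUUGggguaagggcuucc
Among the 45 miRNAs with a sequence that passed the unadjusted thresholds, there were 44 different seeds. The only seed found more than once was ACCCUGU, of miR-10a-5p and miR-10b-5p, whose full sequences differ by U12A (miR-10a-5p first, counted from the 5′ end).

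Read counts per mature miRNA were analysed. Libraries of *Dnmt3a/3b*-DKO held 1310824 to 2394918 counts and those of *Dnmt*-null 266379 to 841166, so that every *Dnmt3a/3b*-DKO library was deeper than every *Dnmt*-null library. Counts were scaled to the library total and to the TMM factor of edgeR, and are given as normalized CPM (counts scaled to a library of 1e+06). A miRNA with at most 3 counts in each library of a group was treated as being at the limit of measurement, which on average lay at 6.33 normalized CPM in *Dnmt*-null and 1.86 in *Dnmt3a/3b*-DKO libraries. In log2 CPM, *Dnmt*-null replicate 4 had a median correlation of 0.860 with its own group, against 0.922 to 0.929 for the other *Dnmt*-null libraries, and of 0.863 with *Dnmt3a/3b*-DKO. It was the 1 of the 8 libraries closer to the other genotype than to its own by this measure. As a check of the tissue, the summed level of the *Sfmbt2*-type families, which are strong in trophoblast, was 93243 to 172212 CPM in the *Dnmt*-null and 132533 to 169117 CPM in the *Dnmt3a/3b*-DKO Exe libraries, and 15197 to 31218 and 8507 to 19940.5 CPM in the Epi of these genotypes. The miR-302/miR-367 cluster, which marks the epiblast, had 19342 to 30541 and 25695 to 40787 CPM in Exe, and 119696 to 185238 and 217184 to 225183 CPM in Epi. The epiblast markers were thus detected in every Exe library, at a level well below that of Epi, and their part in the results was not tested.

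In *Dnmt*-null Exe, miR-483, the miRNAs of the *Hox* clusters, an X-linked cluster around miR-322 and miR-503, several miRNAs of blood cells and miR-30c-5p were lower than in *Dnmt3a/3b*-DKO Exe. miR-298-5p and miR-296-3p beside *Gnas*, some of the *Mirg* cluster in *Dlk1-Dio3*, miR-5099 and miR-669c-5p were higher, and miR-129 was counted where it had been at 0. Of the 597 miRNAs kept by the low-count filter of edgeR, 23 had an adjusted p (Benjamini-Hochberg) under 0.05, 8 of them higher (1.34%) and 15 lower (2.51%), together 3.85% of those tested. These 23 names come from 17 positions in the genome. At the thresholds of the study, a log2 fold change beyond 0.5 and an unadjusted p under 0.05, 24 were higher and 33 lower (9.55% of those tested). The 4 libraries of 1 genotype were all above the 4 of the other for 51 miRNAs (8.54%), with *Dnmt*-null higher for 21 (3.52%) and lower for 30 (5.03%), including 17 of the 23. The median log2 fold change over all tested miRNAs was -0.00087. The 57 miRNAs past the unadjusted thresholds carried 15.8 to 21.5% of the counts in *Dnmt*-null and 13.1 to 14.1% in *Dnmt3a/3b*-DKO libraries. Both arms were tested for 189 hairpins. Both arms passed the unadjusted thresholds for 9 of them, each time in the same direction. The 9 include miR-486a and miR-486b, which have the same counts. For 22 hairpins only 1 arm passed, and the other arm had the same sign in 20.

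**Figure D1:**
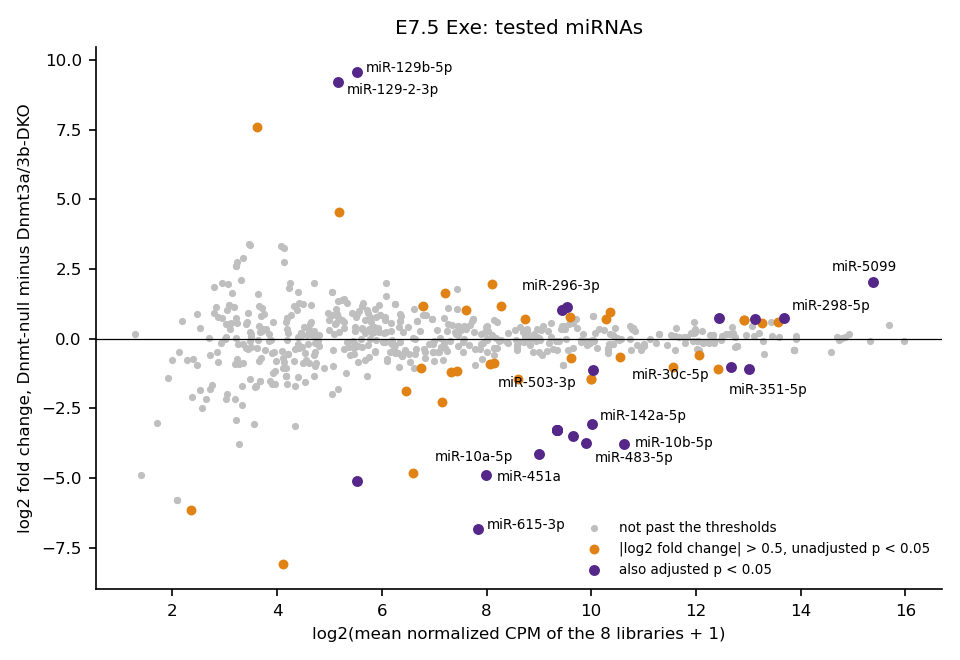
Log2 fold change between *Dnmt*-null and *Dnmt3a/3b*-DKO Exe at E7.5 for the 597 tested miRNAs (vertical axis) against the log2 of the mean normalized CPM plus 1 (horizontal axis). Purple points have an adjusted p under 0.05, orange points pass only the unadjusted thresholds, and the lowest purple point is miR-615-3p at -6.83.

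The lowest p-value belonged to miR-483-5p, which together with miR-483-3p is cut from a hairpin in an intron of *Igf2*, the gene of a fetal growth factor that is imprinted and expressed from the paternal copy. In the 4 *Dnmt*-null libraries, miR-483-5p was at 97.1, 136, 59.2 and 237 normalized CPM (replicates 1 to 4). The *Dnmt3a/3b*-DKO libraries had 1949, 2004, 1566 and 1589. The groups did not overlap, and were far apart. This gave a log2 fold change of -3.74 (adjusted p 1.14e-05, SE 0.40). The other arm, miR-483-3p, had 139, 91.7, 32.3 and 260.4 normalized CPM in *Dnmt*-null and 1594, 1355, 1716 and 1201 in *Dnmt3a/3b*-DKO, with a log2 fold change of -3.48 (adjusted p 0.00243, SE 0.62). Both arms fell. Their hairpin, *Mir483* (chromosome 7, 142654924 to 142654996, minus strand, GRCm38), is shown with both mature arms in capitals.
Mir483 hairpin: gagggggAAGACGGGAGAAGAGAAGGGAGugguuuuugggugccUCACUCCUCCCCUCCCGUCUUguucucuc
The levels in *Dnmt3a/3b*-DKO were close to those of controls (2199.8, 1780.3, 2465 and 2155 for the 5p arm), and those of *Dnmt1*-KO were low (411, 295, 221 and 119). In this design, miR-483-5p was thus high in each library with *Dnmt1* and low in each library without it.

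The hairpins *Mir298* (chromosome 2, 174267504 to 174267585) and *Mir296* (chromosome 2, 174267047 to 174267125) lie side by side on the minus strand, next to *Gnas*, an imprinted gene of a G protein subunit. miR-298-5p was among the abundant miRNAs of this tissue. It had 15566, 15496, 17551 and 17059.5 normalized CPM in *Dnmt*-null and 10408, 9798, 9069 and 10004 in *Dnmt3a/3b*-DKO libraries. All 4 *Dnmt*-null libraries were higher, with a log2 fold change of 0.74 (adjusted p 0.00243, SE 0.13). The values of miR-296-3p were 784, 879, 999 and 1450.4 in *Dnmt*-null and 497, 486, 268 and 602 in *Dnmt3a/3b*-DKO. Again the groups did not overlap, and the log2 fold change was 1.15 (adjusted p 0.023, SE 0.27). For miR-298-5p, the control libraries (10968 to 14448) lay between these genotypes, and *Dnmt1*-KO libraries (16812 to 19911) had the highest mean. The log2 fold change of miR-298-5p in *Dnmt3a/3b*-DKO against control was -0.44 (adjusted p 0.0942). The lesser arm miR-296-5p had 36.0 to 82.8 in *Dnmt*-null and 11.2 to 71.6 in *Dnmt3a/3b*-DKO, and its log2 fold change of 0.89 (SE 0.69) did not pass. Neither did that of the other arm of *Mir298*, miR-298-3p (0.38, SE 0.62, with 32.3 to 73.4 and 25.4 to 57.9), so that 2 of the 4 arms were higher.

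At *Mest*, an imprinted gene whose intron holds miR-335, the libraries were uneven. miR-335-5p was at 784, 1561, 8533 and 3172 normalized CPM in *Dnmt*-null and 7850.3, 5944, 6612 and 9213 in *Dnmt3a/3b*-DKO. *Dnmt*-null replicate 3 fell among the *Dnmt3a/3b*-DKO libraries and the other three below them. The log2 fold change, -1.07 (SE 0.50), passed the unadjusted thresholds with p 0.0455, and not after adjustment (adjusted p 0.414). Of the 9 tested miRNAs from these imprinted loci (*H19*, *Igf2*, *Gnas* and *Mest*), 2 were higher and 3 lower at the unadjusted thresholds (among all tested, 4.02% and 5.53%) and 2 were higher and 2 lower after adjustment (1.34% and 2.51%), and their median log2 fold change was 0.057.

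The *Dlk1-Dio3* locus on chromosome 12 holds many miRNAs expressed from the maternal copy, in groups near *Meg3*, antisense to *Rtl1*, around *Rian* and in *Mirg*. It accounted for 25.8, 24.1, 25.3 and 20.1% of the counts in the *Dnmt*-null libraries and 21.9, 20.0, 19.4 and 21.4% in those of *Dnmt3a/3b*-DKO. *Dnmt*-null replicate 4 lay within the range of the other genotype, and the other *Dnmt*-null libraries above it. The difference of the means was 3.13 percentage points (exact two-sided permutation test, p 0.0857, where 0.0286 is the smallest p that 4 against 4 can give), and was thus not past 0.05. Of 113 miRNAs in the locus, 95 were tested, 8 passed as higher and 0 as lower at the unadjusted thresholds (with DESeq2, 11 and 0), against 4.02% higher among all tested. After adjustment, 2 were higher, against 1.34% among all tested, and 0 under 8 of the 17 alternatives. Without *Dnmt3a/3b*-DKO replicate 3, 4 were higher at the unadjusted thresholds. The median log2 fold change of the 95 was 0.18.

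Both miRNAs that passed the adjustment belong to the *Mirg* cluster. miR-666-5p (chromosome 12, 109717103 to 109717124, the mature sequence) was at 937, 849.9, 825 and 1125 normalized CPM in *Dnmt*-null and 421, 497, 408 and 532 in *Dnmt3a/3b*-DKO, a log2 fold change of 1.01 (adjusted p 0.0447, SE 0.27). For miR-485-3p (chromosome 12, 109734902 to 109734974, in an exon of *Mirg*), the levels were 6428, 6627, 7884 and 7019 and 5568, 3394, 4414 and 3347, with a log2 fold change of 0.74 (adjusted p 0.0447, SE 0.20). Neither overlapped between the genotypes. The others past the unadjusted thresholds were miR-543-3p (log2 fold change 0.97), miR-668-3p (1.05), miR-382-5p (0.76), miR-134-5p (0.70) and miR-541-5p (0.56) of the *Mirg* cluster, and miR-770-5p (0.72), which lies in an exon of *Meg3*. By region, 7 of 60 tested passed as higher in the *Mirg* cluster, 1 of 12 next to *Meg3*, and 0 of 12 antisense to *Rtl1* and 0 of 5 around *Rian* (at an unadjusted p under 0.05 alone, 1 and 0 with edgeR, and 1 and 0 with DESeq2). The Rian-region miRNAs had a median of -0.77 on the log2 scale. The most abundant of that group, miR-370-3p, had a log2 fold change of -0.023 (SE 0.20).

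Within the locus, miR-127-3p had the largest number of counts. Its levels were 68064, 56731, 58381 and 64268 normalized CPM in *Dnmt*-null and 43057, 42709, 42656 and 47390.5 in *Dnmt3a/3b*-DKO. The groups did not overlap. With edgeR its log2 fold change of 0.49 (adjusted p 0.0546, SE 0.14) lay just outside both thresholds, and with DESeq2 it lay past both (0.53, adjusted p 0.0287), as it did in edgeR with the size factors of DESeq2 (0.53, adjusted p 0.0454). Other miRNAs that the study singled out varied between arms of a hairpin. miR-541-5p was at 11892, 12599, 11817 and 10538 in *Dnmt*-null and 9005, 7769, 6622 and 8484 in *Dnmt3a/3b*-DKO without overlap, while miR-541-3p, which is much scarcer, had 63.7 to 259.6 and 195 to 259. miR-409-5p had 8082 to 11268 and 6117 to 7853, with a log2 fold change of 0.45 (adjusted p 0.136, SE 0.15). The values of the more abundant miR-409-3p overlapped (27493 to 40932 and 27015 to 33389, log2 fold change 0.18, SE 0.14). For miR-369-3p (1.05, SE 0.81), miR-369-5p (-0.13, SE 0.22), miR-540-3p (0.28, SE 0.37), miR-540-5p (0.24, SE 1.25) and miR-127-5p (-0.38, SE 0.62), the log2 fold changes did not pass and the libraries overlapped. let-7b-5p, outside the locus, was at 48.6, 31.3, 179 and 65.1 in *Dnmt*-null and 25.1, 161, 6.54 and 12.4 in *Dnmt3a/3b*-DKO, so that replicate 2 of *Dnmt3a/3b*-DKO lay among the *Dnmt*-null libraries. Its log2 fold change of 0.66 (SE 1.01, adjusted p 0.94) did not pass. let-7b-3p had 0 counts in all 8 libraries.

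On the X chromosome, the miRNAs of the miR-322/miR-503 cluster are cut from 1 region that also gives miR-351, miR-450 and miR-542, and are known in trophoblast and muscle, where miR-322 and miR-503 slow the cell cycle. Of 11 tested members, 8 were lower at the unadjusted thresholds and 0 higher (DESeq2 gave the same counts), against 5.53% lower among all tested. Without overlap between the genotypes, 7 were lower, against 5.03% of all tested. The median log2 fold change of the 11 was -0.86. After adjustment, 2 were lower, against 2.51% of all tested. The most abundant, miR-351-5p, had 4753, 3614, 6467 and 6236 normalized CPM in *Dnmt*-null and 9887, 11922, 10693 and 12884 in *Dnmt3a/3b*-DKO. Every *Dnmt*-null library was lower, and the log2 fold change was -1.11 (adjusted p 0.00243, SE 0.20). miR-503-3p was at 552, 626, 927 and 535 and 1595, 1245, 1213 and 1726, a log2 fold change of -1.13 (adjusted p 0.00322, SE 0.22). For miR-322-3p, the levels were 1769, 2389, 2967 and 794 and 3346, 4336, 3317 and 5162, with a log2 fold change of -1.03 that did not pass the adjustment (adjusted p 0.0716). The others past the unadjusted thresholds were miR-322-5p (-1.04), miR-503-5p (-0.86), miR-450b-5p (-0.91), miR-450a-5p (-0.69) and miR-351-3p (-0.65). Together, the cluster made up 10256, 8819, 13148 and 8332 CPM in *Dnmt*-null and 19259.9, 21745, 19694 and 24593 CPM in *Dnmt3a/3b*-DKO libraries, without overlap. Seeds were compared among the 473 tested miRNAs with a sequence. The 2 others with the seed of miR-351-5p, miR-125a-5p and miR-125b-5p, had log2 fold changes of 0.59 (SE 0.40) and 1.11 (SE 0.74). The 4 with the seed of miR-322-5p, of the miR-15/miR-16/miR-195 family, had log2 fold changes from -0.41 to 0.28. None of these 6 passed the unadjusted thresholds with edgeR. Among the 35 other tested miRNAs of the X chromosome, outside this cluster and the germline cluster, 1 was lower and 0 higher, with a median log2 fold change of -0.064. Without *Dnmt*-null replicate 4, 5 members of the cluster were lower, and without *Dnmt3a/3b*-DKO replicate 4, 4.

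**Figure D2:**
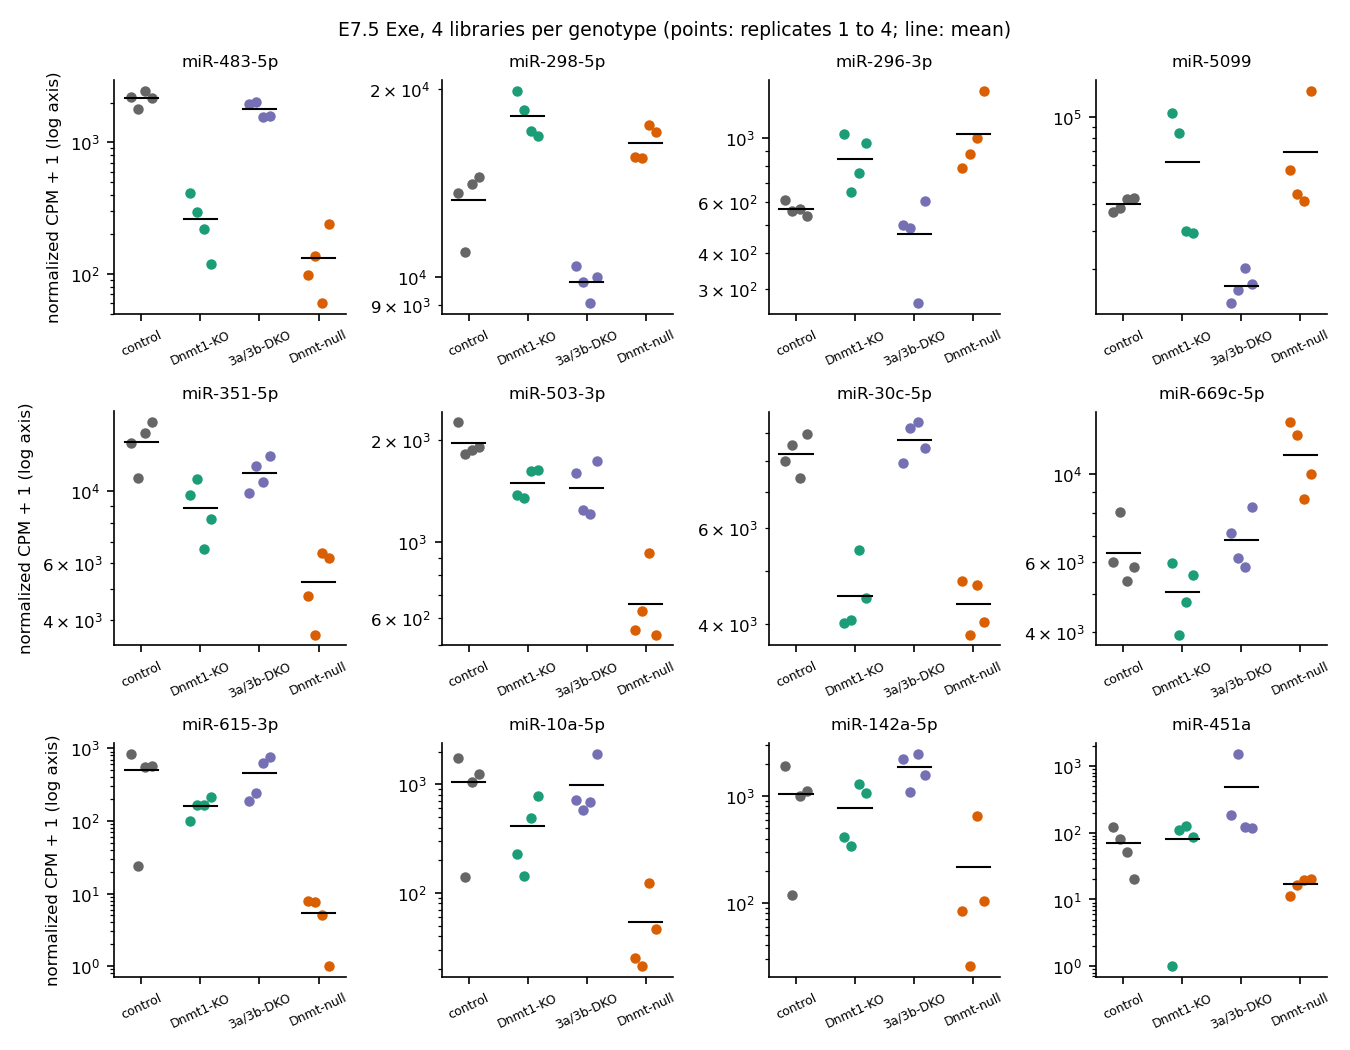
Normalized CPM plus 1 (log axis) of 12 miRNAs in each E7.5 Exe library, with 4 points per genotype and the mean as a line. From left to right, the genotypes are control, *Dnmt1*-KO, *Dnmt3a/3b*-DKO and finally *Dnmt*-null. For miR-483-5p, the *Dnmt*-null libraries lie between 59.2 and 237 and those of *Dnmt3a/3b*-DKO between 1566 and 2004.

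The miRNAs within the *Hox* gene clusters, which set position along the body axis and are expressed in posterior mesoderm, were lower by a large factor. Of 10 in the table, 5 were tested, and 4 were lower both before and after adjustment and 0 higher (DESeq2 gave 5 lower). Among all tested, 5.53% were lower before and 2.51% after adjustment. For miR-615-3p (chromosome 15, 103014969 to 103014990, the mature sequence, in an intron of *Hoxc5*), the *Dnmt*-null counts were 2, 3, 3 and 0, at the limit of measurement, against 261, 391, 868 and 1822 in *Dnmt3a/3b*-DKO. The *Dnmt3a/3b*-DKO levels were 187, 244, 631 and 750.3 normalized CPM, and *Dnmt*-null was at least 71.6-fold below, taking 3 counts per library as the floor (adjusted p 0.000359). miR-10a-5p (chromosome 11, 96317165 to 96317274, between *Hoxb* genes) had 24.3, 20.1, 121 and 45.7 normalized CPM in *Dnmt*-null and 716, 579, 688 and 1917 in *Dnmt3a/3b*-DKO, a log2 fold change of -4.15 (adjusted p 0.00243, SE 0.75). miR-10b-5p (chromosome 2, 74726070 to 74726137, in an intron of *Hoxd3*) had 118, 40.3, 409 and 269 and 1512, 2094, 2718 and 5467, a log2 fold change of -3.80 (adjusted p 0.0033, SE 0.73). The groups did not overlap for any of these. The minor arm miR-10b-3p was counted in *Dnmt*-null replicate 3 only (0, 0, 6 and 0 counts), and had 37, 93, 106 and 459 counts in *Dnmt3a/3b*-DKO (adjusted p 0.0461). In a bulk sample, fewer cells of a type and less RNA per cell cannot be told apart. Whether the lower levels of these miRNAs, and of the blood miRNAs below, go with the abnormal development of *Dnmt*-null embryos was not tested.

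The level of the *Hox* miRNAs also varied within a genotype. Summed over the group, it was 165, 75.5, 551 and 269.9 CPM in *Dnmt*-null, 2587, 3059, 4329 and 8505 in *Dnmt3a/3b*-DKO and 8526, 591, 4675 and 5471 in control, while *Dnmt1*-KO libraries had 915, 811, 2449 and 2892. Control replicate 2 stood well below the other controls, and close to the highest *Dnmt*-null library. In that control library, miR-10a-5p was at 140.3 normalized CPM, miR-615-3p at 23.2 and miR-142a-5p, of blood cells, at 118. The control libraries were part of the fit, and so of the low-count filter, the scaling and the estimate of the spread. When the fit was restricted to the 8 libraries compared, 4 of the *Hox* miRNAs were lower at the unadjusted thresholds and 3 after adjustment.

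The miRNAs of blood and endothelium were lower as well. Of 13 tested names, some of which share their counts, 10 were lower and 0 higher at the unadjusted thresholds (DESeq2, 9 and 0), against 5.53% lower among all tested, with a median log2 fold change of -3.28, and 6 were lower after adjustment, against 2.51%. With 1 name kept of each set of identical counts, 7 of 9 were lower and 4 after adjustment. Their summed level was 1115, 979.7, 5713 and 3123 CPM in *Dnmt*-null and 9600.1, 23892, 10109 and 6991 in *Dnmt3a/3b*-DKO. miR-451a, which is processed by Argonaute without Dicer and is abundant in red blood cells, had 10.4, 15.7, 18.8 and 19.4 normalized CPM in *Dnmt*-null and 186, 1539.8, 122 and 116 in *Dnmt3a/3b*-DKO. Its log2 fold change was -4.89 (adjusted p 0.0175, SE 1.11). The level in *Dnmt3a/3b*-DKO replicate 2 was far above the other three, and without this library the log2 fold change was -3.09 (adjusted p 0.183). Of the 6 names past the adjustment, 4 are the arms of miR-486a and miR-486b, which are annotated on opposite strands of the same place (*Mir486* in an intron of *Ank1*, chromosome 8, 23142555 to 23142682) and had nearly the same counts, so they are 1 signal under 4 names. miR-486a-5p, another miRNA of red blood cells, was at 125, 62.6, 64.6 and 226 in *Dnmt*-null and 309, 3919, 312 and 162 in *Dnmt3a/3b*-DKO. The groups overlapped, and without *Dnmt3a/3b*-DKO replicate 2 the log2 fold change went from -3.29 to -1.11 (adjusted p 0.605). miR-144-3p, which shares its transcript with miR-451a, had 20.8, 4.47, 4.04 and 0 and 32.2, 638, 25.4 and 39.1, with an adjusted p of 0.107. miR-142a-5p, of white blood cells, did not depend on that library in the same way. It had 83.3, 24.6, 652 and 103 in *Dnmt*-null and 2217, 1101, 2494 and 1585 in *Dnmt3a/3b*-DKO, a log2 fold change of -3.08 (adjusted p 0.0424, SE 0.82), and -3.27 without *Dnmt3a/3b*-DKO replicate 2 (adjusted p 0.0507). The endothelial miR-126a-3p, counted together with miR-126b-5p on the opposite strand, was at 118, 199, 1334 and 518 and 1653, 1344, 1709 and 1287, and passed only the unadjusted thresholds (log2 fold change -1.46, adjusted p 0.154). Over the group, without *Dnmt3a/3b*-DKO replicate 2, 7 members were lower at the unadjusted thresholds and 0 after adjustment, and without *Dnmt*-null replicate 1 or *Dnmt*-null replicate 2 10 were lower at the unadjusted thresholds and 0 after adjustment (edgeR in each case).

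Of the miRNAs of mesenchyme and smooth muscle, 7 were tested. miR-143-3p was at 76.3, 224, 272 and 255 normalized CPM in *Dnmt*-null and 556, 572, 311 and 842 in *Dnmt3a/3b*-DKO (log2 fold change -1.45, adjusted p 0.0572), and miR-145a-3p, from the same transcript, at 0, 13.4, 69.9 and 103 and 206, 244, 134 and 356 (log2 fold change -2.28, adjusted p 0.19). Both were lower without overlap, and with edgeR passed the unadjusted thresholds alone (DESeq2 gave adjusted p 0.0115 for miR-143-3p and 0.0572 for miR-145a-3p). miR-199a-5p, a further mesenchymal miRNA, went the other way. It had 517, 380.2, 492 and 321 in *Dnmt*-null and 181, 168, 233 and 182 in *Dnmt3a/3b*-DKO, with a log2 fold change of 1.16 (adjusted p 0.122, SE 0.38) with edgeR and an adjusted p of 0.0228 with DESeq2, while controls had 23.0 to 53.7. The endoderm miRNAs (6 tested), the neural miRNAs (5 tested) and those of cardiac and skeletal muscle (4 tested) had 0, 0 and 0 members with an unadjusted p under 0.05 with edgeR, and 0, 0 and 0 with DESeq2. The summed level of the neural group was low, at 0 to 86.9 CPM over the 8 libraries. That of the endoderm group was 7576, 8169, 6281 and 1734 CPM in *Dnmt*-null and 4412, 4513, 5329 and 5483 in *Dnmt3a/3b*-DKO.

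**Figure D3:**
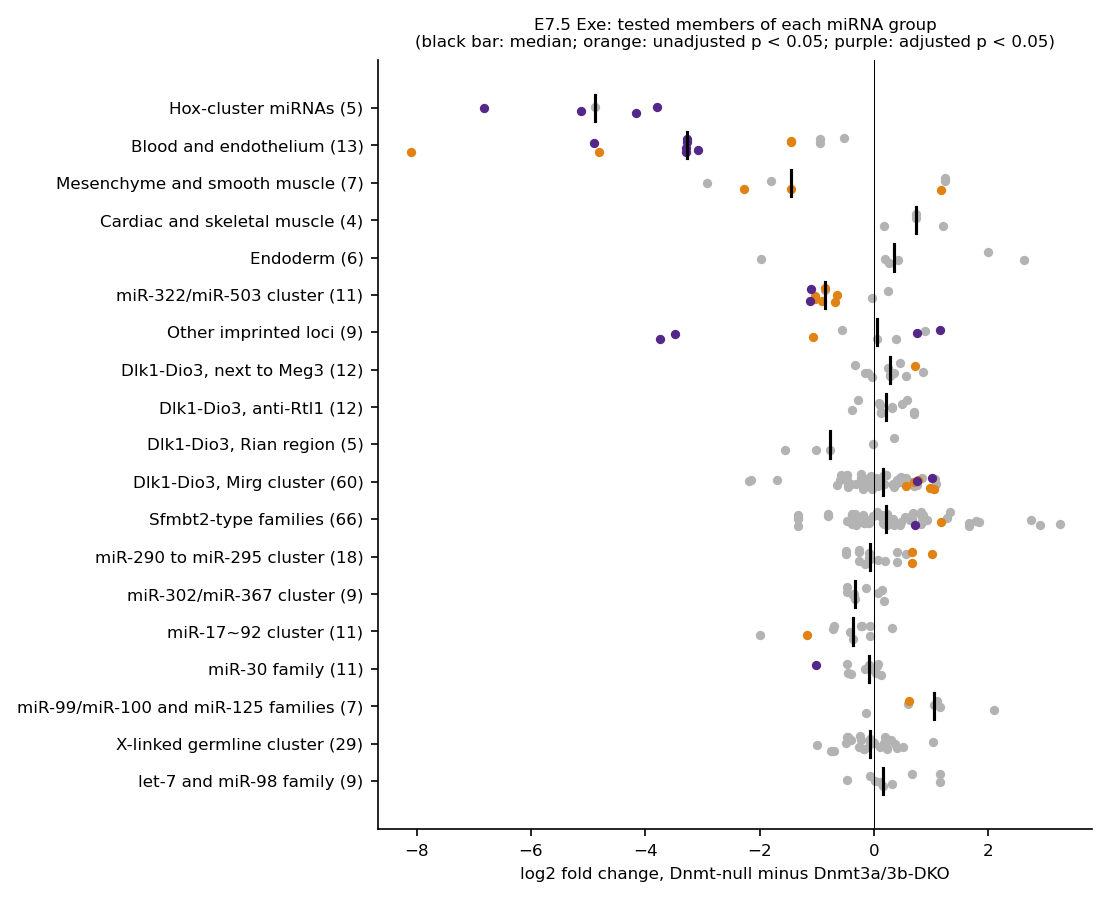
Log2 fold change (horizontal axis) of the tested members of 19 miRNA groups between *Dnmt*-null and *Dnmt3a/3b*-DKO Exe at E7.5, with the number tested in brackets and the median as a black bar. The medians of the *Hox* (-4.89) and blood (-3.28) groups lie farthest from 0, and those of the *Mirg* (0.16), *Sfmbt2* (0.20) and miR-290 to miR-295 (-0.074) groups lie near 0.

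miR-30c-5p, made from 2 genes (*Mir30c-1* in an intron of *Nfyc* and *Mir30c-2*), stood apart within its family. Its levels were 4805, 3818, 4721 and 4023 normalized CPM in *Dnmt*-null and 7908, 9186, 9423 and 8455 in *Dnmt3a/3b*-DKO, without overlap and with little spread in either group. On the log2 scale the change was -1.01 (adjusted p 0.000535, SE 0.15). Of the 11 tested miRNAs of the miR-30 family, it was the 1 that passed. The abundant miR-30a-5p (log2 fold change -0.17, SE 0.20), miR-30d-5p (0.064) and miR-30e-5p (0.13, SE 0.19) did not pass, although *Mir30e* lies in the same *Nfyc* gene. Among the tested miRNAs with a sequence, miR-30a-5p and miR-30e-5p have the same seed as miR-30c-5p. The lowest control library had 7423 and the highest *Dnmt1*-KO library 5483, so that miR-30c-5p, like miR-483, separated the libraries with *Dnmt1* from those without it.

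miR-5099, an entry of miRBase whose gene is at chromosome 12, 36816205 to 36816278, was the most abundant of the miRNAs that changed. It was at 57112, 44342, 41138 and 132261 normalized CPM in *Dnmt*-null and 13935, 16042, 20179 and 16972 in *Dnmt3a/3b*-DKO. Every *Dnmt*-null library was above every *Dnmt3a/3b*-DKO library, and replicate 4 was the highest by far. The log2 fold change was 2.03 (adjusted p 0.00322, SE 0.39), and 1.46 without replicate 4. The control libraries, 36754 to 42305, lay above all the *Dnmt3a/3b*-DKO libraries, and the log2 fold change of *Dnmt3a/3b*-DKO against control was -1.25 (adjusted p 0.0965).

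A few miRNAs were found in *Dnmt*-null Exe where *Dnmt3a/3b*-DKO had none. The counts of miR-129b-5p were 50, 0, 65 and 73 in *Dnmt*-null, and 0 in all 4 libraries of *Dnmt3a/3b*-DKO and of control. With 3 counts per library as the floor, it was at least 48.7-fold higher (adjusted p 0.0291). For miR-129-2-3p, the counts were 32, 0, 50 and 73 against 0, at least 37.6-fold higher (adjusted p 0.0391). The calls of miR-129b-5p and miR-129-2-3p were lost under 6 and 7 of 16 alternatives. These entries overlap by 20 bases on opposite strands of chromosome 2 (94241364 to 94241453 for *Mir129-2*), and whether they hold the same reads was not tested. Replicate 2 had 0 counts of both, so the groups overlapped at 0. miR-129-1-3p, which has the related sequence of another gene, had 13, 0, 13 and 20 counts against 0, at least 12.1-fold higher, and passed only the unadjusted thresholds. In *Dnmt1*-KO, miR-129b-5p had 0, 15, 68 and 97 counts. Counts of miR-129b-5p were thus found in 3 of 4 *Dnmt*-null and 3 of 4 *Dnmt1*-KO libraries, and in 0 of the 8 others.

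The repeated families of the *Sfmbt2* intron and the miR-290 to miR-295 cluster are among the most abundant miRNAs of early trophoblast, and the latter summed to 128910 to 155154 CPM in *Dnmt*-null and 130441 to 158449 CPM in *Dnmt3a/3b*-DKO libraries. Of 66 tested *Sfmbt2*-type miRNAs, 2 were higher and 0 lower at the unadjusted thresholds and 1 was higher after adjustment, with a median log2 fold change of 0.20. Among all tested, 4.02% were higher before and 1.34% after adjustment, so that the shares in these families were near those of all miRNAs. Leaving out 1 library gave 2 to 5 higher (5 without *Dnmt*-null replicate 4, and 4 without *Dnmt3a/3b*-DKO replicate 1 or 4), with 0 lower except for 5 without *Dnmt*-null replicate 2 and 1 without *Dnmt*-null replicate 4. The 1 past the adjustment, miR-669c-5p (chromosome 2, 10509296 to 10509404), was at 13502, 12563, 8650.5 and 9985 normalized CPM in *Dnmt*-null and 7092, 6162, 5846 and 8259.8 in *Dnmt3a/3b*-DKO, a log2 fold change of 0.71 (adjusted p 0.0447, SE 0.19). The groups did not overlap, but were close. The other was miR-669h-5p (1.16, adjusted p 0.197). Reads of these near-identical families can be counted under several names. In the miR-290 to miR-295 cluster, of pluripotent cells and early trophoblast, 3 of 18 tested were higher with edgeR (4.02% among all tested), all at the unadjusted thresholds alone. With DESeq2, 4 were higher and 2 passed the adjustment, and without *Dnmt*-null replicate 3 or *Dnmt3a/3b*-DKO replicate 1, edgeR gave 5 and 2. The 3 with edgeR were miR-291a-3p (1.01) and miR-292a-5p with miR-292b-3p on the opposite strand, which had the same counts (0.66, adjusted p 0.0572, and 0.0158 with DESeq2). miR-292a-5p was at 8812, 10324, 8520.0 and 10118 in *Dnmt*-null and 7155, 5039, 6439 and 5257 in *Dnmt3a/3b*-DKO. The most abundant member, miR-295-3p, had a log2 fold change of -0.095 (SE 0.13).

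Several other groups had few or 0 members past the thresholds. For the X-linked germline cluster, 0 of 29 tested had an unadjusted p under 0.05 with either edgeR or DESeq2, and the median log2 fold change was -0.076. Its summed level was 31106, 40144, 37501 and 39690.1 CPM in *Dnmt*-null, and 33638, 31516, 41623 and 42817 in *Dnmt3a/3b*-DKO. *Dnmt1*-KO libraries had 32345, 35582, 34172 and 36994, and controls 10472, 14772, 18569 and 7523. All the mutant libraries were above the control libraries. miR-470-5p, a member of it, had a log2 fold change of 0.40 (SE 0.24) here. The miR-302/miR-367 cluster (9 tested), the let-7 and miR-98 family (9), the miR-183/miR-96/miR-182 cluster (6) and the miR-15/miR-16/miR-195 family (6) also had 0 members with an unadjusted p under 0.05 with edgeR and with DESeq2. Their medians were -0.33, 0.16, 0.29 and 0.088. In the miR-200/miR-141/miR-429 family of epithelia, 1 of 8 was lower (miR-200b-3p, -0.59), and in the miR-99/miR-100 and miR-125 families 1 of 7 was higher (miR-99b-5p, 0.61), both without passing the adjustment. Among all tested, 5.53% were lower and 4.02% higher at the unadjusted thresholds. Outside any of the groups, 8 miRNAs passed the unadjusted thresholds, among them miR-328-3p (1.63), which was at 295, 221, 183 and 188 in *Dnmt*-null and 123, 44.8, 42.9 and 75.4 in *Dnmt3a/3b*-DKO without overlap.

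The same loss of *Dnmt1* with *Dnmt3a/3b* intact is given by *Dnmt1*-KO against control, which uses other libraries. It called 30 of 597 miRNAs after adjustment, 5.03% of those tested, 25 higher (4.19%) and 5 lower (0.838%), and 100 at the unadjusted thresholds (16.8%). Of the 23 miRNAs called in *Dnmt*-null against *Dnmt3a/3b*-DKO, 21 had a log2 fold change of the same sign there and 6 also passed the adjustment: both arms of miR-483, miR-30c-5p, miR-129b-5p, miR-485-3p and miR-666-5p. The log2 fold change of miR-483-5p was -3.04 (SE 0.39, adjusted p 0.000141) in *Dnmt1*-KO against control and -3.74 in *Dnmt*-null against *Dnmt3a/3b*-DKO. That of miR-30c-5p was -0.87 (SE 0.15) and -1.01. The difference of the 2 effects was tested as an interaction. None of the 23 passed it after adjustment with edgeR, 9 had an unadjusted p under 0.05, and with DESeq2 3 passed the adjustment. Over all 597, the interaction called 1 miRNA after adjustment (0.168%) and 64 had an unadjusted p under 0.05 (10.7%). With an SE of 0.51, the interaction of miR-483-5p was -0.69. The *Hox* miRNAs had larger log2 fold changes in the absence of *Dnmt3a/3b*, with interactions of -5.20 (SE 1.16, adjusted p 0.0776) for miR-615-3p and -2.80 (SE 0.95, adjusted p 0.208) for miR-10a-5p, neither past the adjustment. miR-669c-5p and miR-451a had log2 fold changes of opposite sign in the 2 settings, and their interactions did not pass either (adjusted p 0.109 and 0.134).

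The 1 miRNA past the interaction was miR-1195. It was at 16.5, 46.4, 75.6 and 88.1 normalized CPM in control, and 861, 503, 414 and 489 in *Dnmt1*-KO. The *Dnmt3a/3b*-DKO libraries had 443, 494, 304 and 475, and the *Dnmt*-null libraries 215, 286, 414 and 428. The controls were below every mutant library, and the mutants overlapped each other. Its log2 fold change was 3.32 in *Dnmt1*-KO against control and -0.35 in *Dnmt*-null against *Dnmt3a/3b*-DKO, a difference of -3.66 (SE 0.59, adjusted p 0.00362).

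**Figure D4:**
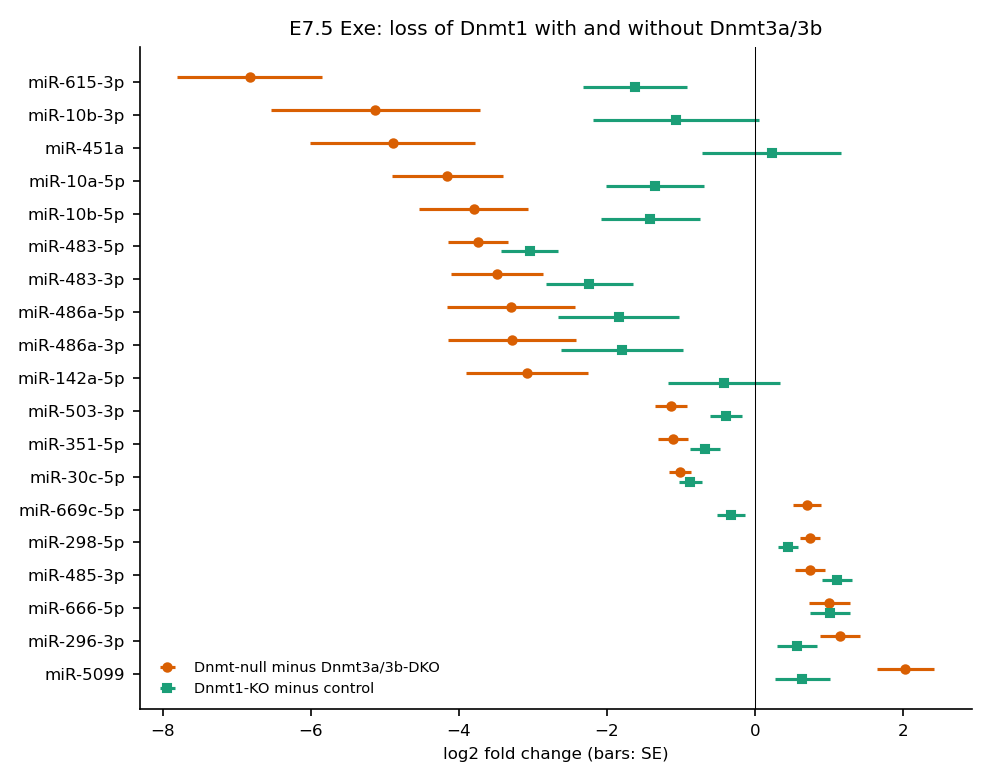
Log2 fold change with its SE (bars) for the loss of *Dnmt1* in the absence of *Dnmt3a/3b* (orange, *Dnmt*-null minus *Dnmt3a/3b*-DKO) and in their presence (green, *Dnmt1*-KO minus control), for 19 of the 23 miRNAs called at E7.5 in Exe. The 4 left out are the names of miR-486b, which repeat miR-486a, and miR-129b-5p and miR-129-2-3p, which were at 0 in *Dnmt3a/3b*-DKO. For miR-483-5p the values are -3.74 and -3.04.

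In E7.5 Epi, the same 2 genotypes were compared with 3 *Dnmt*-null and 4 *Dnmt3a/3b*-DKO libraries, in 1 fit with the Exe libraries (728 miRNAs). All 23 miRNAs called in Exe were tested there, 22 had the same sign and 9 passed the adjustment in the same direction. Over all 728, 48 passed in Epi (6.59%), 20 of them higher (2.75%) and 28 lower (3.85%). The effect differed between the tissues for 6 miRNAs after adjustment (0.824%), 4 of them from the miR-322/miR-503 cluster, and 83 had an unadjusted p under 0.05 (11.4%). miR-351-5p, at 4753, 3614, 6467 and 6236 normalized CPM in *Dnmt*-null Exe as above, had 473, 1285 and 1025 CPM in *Dnmt*-null Epi and 4817, 4746, 6068 and 5963 CPM in *Dnmt3a/3b*-DKO Epi. Its log2 fold change was -2.60 in Epi, and the difference of Exe minus Epi was 1.52 (SE 0.35, adjusted p 0.0274). The differences were 3.21 (SE 0.41) for miR-351-3p, 2.31 (SE 0.51) for miR-322-3p and 2.16 (SE 0.46) for miR-503-3p, all with the larger fall in Epi. The other 2 were miR-483-5p and miR-142a-5p. miR-483-5p had 0 counts in all 3 *Dnmt*-null Epi libraries and 519, 431, 621 and 591 CPM in *Dnmt3a/3b*-DKO Epi, which is at least 58.2-fold lower with 3 counts per library as the floor, while it remained countable in every *Dnmt*-null Exe library. In Epi, miR-142a-5p was at 781, 869 and 1035 CPM in *Dnmt*-null and 474, 526, 289 and 359 CPM in *Dnmt3a/3b*-DKO (log2 fold change 1.06, SE 0.73, adjusted p 0.445), and did not pass there. In Exe, *Dnmt*-null was lower, and the effects differed (difference -4.16, SE 1.02, adjusted p 0.0413).

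A day earlier, in E6.5 Exe, 0 of 540 miRNAs passed the adjustment between these genotypes with edgeR, where 23 had an unadjusted p under 0.05. All 23 miRNAs called in E7.5 Exe were tested at E6.5, and 11 of them had the same sign. The libraries there were shallower, so that 3 counts correspond to 22.6 to 40.0 CPM in *Dnmt*-null. miR-483-5p was at 466, 237, 347 and 158 CPM in *Dnmt*-null and 933, 717, 943 and 666 CPM in *Dnmt3a/3b*-DKO, again without overlap. Its log2 fold change was -1.40 (SE 0.54, unadjusted p 0.0148). The effect differed between the stages for 2 miRNAs after adjustment (0.37%), miR-615-3p and miR-10b-5p, and 29 had an unadjusted p under 0.05 (5.37%). miR-10b-5p was at 143, 139, 200.2 and 137 CPM in *Dnmt*-null and 143, 227, 50.6 and 116 CPM in *Dnmt3a/3b*-DKO at E6.5. At E7.5, the same plain CPM values were 128, 41.2, 410.5 and 231 in *Dnmt*-null and 1593, 2154, 2853 and 5544 in *Dnmt3a/3b*-DKO, so that the genotypes overlapped at the earlier stage and not at the later one. The difference of the effects was -3.97 (SE 0.91, adjusted p 0.029). miR-615-3p had at most 5 counts in any of these E6.5 Exe libraries (0, 40.8, 0 and 0 CPM in *Dnmt*-null and 5.72, 0, 0 and 4.30 CPM in *Dnmt3a/3b*-DKO), so that its difference (adjusted p 0.0149) carries no interpretable size.

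**Figure D5:**
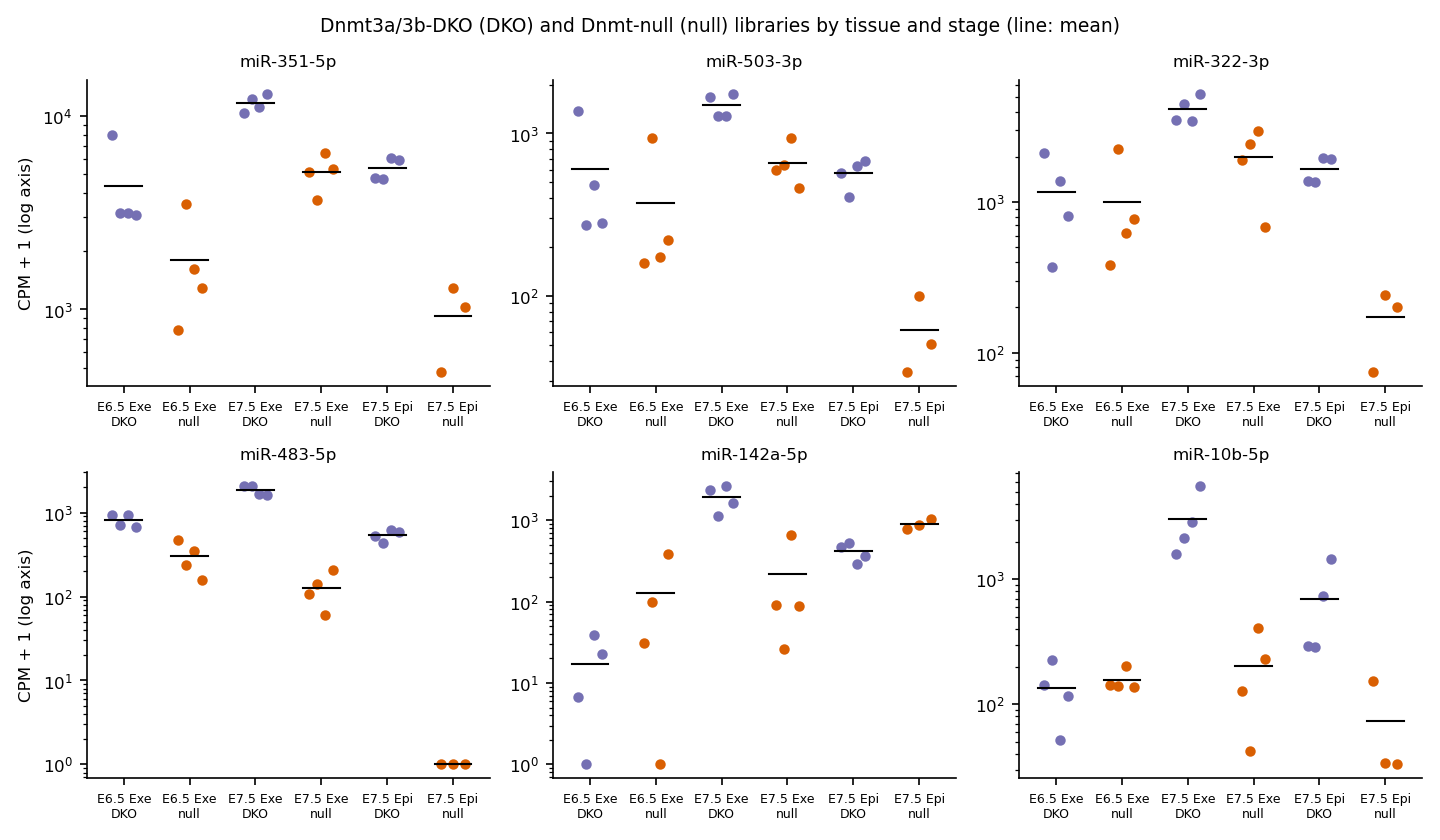
CPM plus 1 (log axis) of 6 miRNAs in the *Dnmt3a/3b*-DKO (purple) and *Dnmt*-null (orange) libraries of E6.5 Exe, E7.5 Exe and E7.5 Epi, with 1 point per library and the mean as a line. In E7.5 Epi, miR-483-5p is at 0 in all 3 *Dnmt*-null libraries, and for miR-142a-5p the log2 fold change is 1.06 in Epi, which did not pass, and -3.08 in Exe.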

How the data were processed

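Small RNA of dissected embryos was sequenced by CAS-seq. According to the methods, the authors trimmed reads with fastp 0.20.1, aligned them to GRCm38 with bowtie 1.2.1.1 and counted mature miRNAs of miRBase. The deposited counts are raw, from PCR-amplified libraries without molecular identifiers, so that floors cover counting error only. In E7.5 Exe, 65 miRNAs in 32 sets had identical counts, and 11 of these sets lie on opposite strands, so such names cannot be told apart.

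Genotypes were taken from the labels. Counts of the 16 E7.5 Exe libraries were filtered (filterByExpr, minimum 10 counts), TMM-normalized and fitted with edgeR 4.0.16 (R 4.3.3, quasi-likelihood). DESeq2 1.42.0, other scalings and filters, a replicate block and leaving out each library were alternatives. The replicates are not stated to be separate embryos, and p-values measure the spread between libraries. Replicates differed by at least 14.6 times the sampling variance. Simulated data of this comparison held 597 miRNAs, of which 200 were changed 4-fold. Of those kept by the low-count filter, 59.4% of the changed and 0.278% of the unchanged miRNAs passed the adjustment. SciPy 1.17.1 gave permutation tests.

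Named are all miRNAs with an adjusted p under 0.05, both arms of 7 miRNAs the study singled out and, in the groups described, members among the 4 of lowest p and the most abundant. The others, such as miR-30d-5p, miR-298-3p, miR-328-3p and those sharing a seed, were picked with their values in view. The comparison and the groups were chosen with earlier results of these data known. Other tables were not used here.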

Additional observations from a re-analysis of the deposited data

Results flagged for a closer look

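In 142 groups of 4 libraries (both genotypes for each of the 71 tested miRNAs named), the highest or lowest library stood apart from the others by Dixon's criterion in 13, where chance flags about 1 in 20 groups. The groups are not independent. The 4 names of miR-486 are 1 signal, and miR-144-3p shares its transcript with miR-451a. *Dnmt3a/3b*-DKO replicate 2 was the high library in 7 of the 13. It had 1539.8 normalized CPM of miR-451a (the others 116 to 186), 3919 of miR-486a-5p and miR-486b-5p (162 to 312), 3918 of miR-486a-3p and miR-486b-3p, 638 of miR-144-3p (25.4 to 39.1), and 161 of let-7b-5p (6.54 to 25.1). *Dnmt3a/3b*-DKO replicate 4 stood apart with 1917 of miR-10a-5p (579 to 716) and 47390.5 of miR-127-3p (42656 to 43057). In *Dnmt*-null, replicate 3 stood apart with 652 of miR-142a-5p (24.6 to 103) and 8.07 of miR-10b-3p (0 in the others), and replicate 4 with 84.5 of miR-369-3p (260.2 to 295) and 7436 of miR-30d-5p (6878 to 6973).

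The effect of the comparison differed between groups of embryos for 9 results, by a test of the difference itself. Between Exe and Epi at E7.5 (Exe minus Epi), the differences were 3.21 for miR-351-3p, 2.16 for miR-503-3p, 2.31 for miR-322-3p, 1.52 for miR-351-5p, -4.16 for miR-142a-5p and 8.64 for miR-483-5p, where the last is a fitted value against libraries at 0 and has no interpretable size. Between E7.5 and E6.5 in Exe, they were -8.58 for miR-615-3p, for which the same holds, and -3.97 for miR-10b-5p. The effect of *Dnmt1* loss on miR-1195 differed by -3.66 between embryos without and with *Dnmt3a/3b*.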

How the results depend on the processing

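Of the 23 miRNAs past the adjusted p, 10 kept direction and call under all 17 alternatives (miR-483-5p, miR-483-3p, miR-615-3p, miR-30c-5p, miR-298-5p, miR-10a-5p, miR-10b-5p, miR-351-5p, miR-503-3p and miR-5099), and none reversed. The count past the adjusted p was 40 with DESeq2 and 11 when only the 8 libraries compared were fitted. Same-numbered *Dnmt*-null and *Dnmt3a/3b*-DKO Exe replicates did not deviate together (correlations 0.040, -0.0050, -0.15 and -0.0098). The numbers thus gave no sign of pairing between these genotypes, and with the replicate block the count was 12. Whether Exe and Epi libraries of the same number come from the same embryos was not tested, and their joint fit treated them as independent. Leaving out 1 library gave 11 to 32, with 11 without *Dnmt*-null replicate 1 or *Dnmt3a/3b*-DKO replicate 2 and 13 without *Dnmt*-null replicate 2. The count past the unadjusted thresholds stayed within 51 to 85 under all alternatives (51 to 82 without 1 library). Interactions with *Dnmt3a/3b* numbered 18 with DESeq2, and 1 to 10 without 1 library (10 without *Dnmt*-null replicate 4). Differences between Exe and Epi numbered 25 with DESeq2 and 1 to 8 without 1 library (3, 2 and 1 without *Dnmt*-null replicate 1 and *Dnmt3a/3b*-DKO replicates 1 and 3), and those between stages 6 with DESeq2 and 1 to 6 without 1 library (1 without *Dnmt*-null replicate 1 or 2, 4 without replicate 3, and 6 without *Dnmt3a/3b*-DKO replicate 1 or 4). The *Dlk1-Dio3* share differed by 2.45 to 4.38 percentage points without 1 library, where 3 against 4 cannot give a p under 0.0571. Of the 48 named miRNAs that did not pass, 7 changed sign when 1 library was left out. On the log2 scale, the difference of let-7b-5p ranged from -0.10 (without *Dnmt*-null replicate 3) to 2.47, that of miR-541-3p from -0.40 to 0.015 (without *Dnmt*-null replicate 4), that of miR-540-3p from -0.00031 (without *Dnmt*-null replicate 4) to 0.55, and that of miR-540-5p from -0.054 (without *Dnmt*-null replicate 2, and -0.0049 without *Dnmt3a/3b*-DKO replicate 2) to 0.70. For miR-30d-5p the range was -0.0072 (without *Dnmt*-null replicate 4) to 0.13, and for miR-30e-5p -0.029 (without *Dnmt*-null replicate 1) to 0.24. miR-370-3p, at -0.023, ranged from -0.16 to 0.11 (positive without *Dnmt3a/3b*-DKO replicate 4, 0.0043 without replicate 1 and 0.071 without *Dnmt*-null replicate 4), and was 0.0064 with DESeq2, 0.0065 with its size factors and 0.022 with TMM factors set without the locus. With 1 miRNA kept of each set of identical counts, an alternative chosen after seeing the data, 23 passed. The lower depth of *Dnmt*-null limits miRNAs near 3 counts, and with all libraries thinned to 266379 counts, 21 passed. Apart from fewer samples or miRNAs tested, the causes were not tested.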
